A study of Homo sapiens with 4 samples.

Results

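Matricellular proteins and adhesive glycoproteins are secreted into the extracellular matrix, where they bind collagens, growth factors and cell-surface integrins. Matricellular proteins such as thrombospondin 1, tenascin C, SPARC, periostin and the CCN proteins change how cells attach, spread and signal more than they carry load. Fibronectin, transforming growth factor beta-induced protein and fibulin-3 are adhesive or structural glycoproteins. In squamous epithelia many of them are raised in wounds and at invasive tumour fronts, and TGF-beta and YAP/TEAD signalling are known inducers of several. The 10 genes described here are TNC, FN1, SPARC, THBS1, TGFBI, CCN1, CCN2, EFEMP1, VIT and POSTN. They were selected on earlier results of these same arrays, and every probe set annotated to a listed symbol alone was kept. That gave 31 probe sets of 54613 that are not array controls, or 10 of 19775 genes. All differences below belong to the contrast that was in view when the genes were chosen, so their calls describe the arrays and are not independent tests.

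CaSki is an established cervical squamous carcinoma line that carries human papillomavirus. The cells received ZNF750, a zinc finger protein that promotes terminal epidermal differentiation, or GFP as the control, both by lentivirus. Each group had 2 arrays, named as replicates 1 and 2, and the cells of both groups were kept in DMEM that the labels list without serum. The labels do not say whether the duplicates came from separate transductions, so the spread between these arrays may be technical. The errors given below combine each feature's own spread between these arrays with that of all features at like signal levels. Both groups are 1 cell line, and no promoter for the introduced genes is given in the sources used here.

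Total RNA was read on Affymetrix HG-U133 Plus 2.0 arrays, and signals are the deposited log2 values. Each difference is ZNF750 minus GFP in log2 units with limma's standard error (n = 2 arrays per group), and a probe set was called lower or higher at an adjusted p under 0.05 over all probe sets. A probe set is called dim here when its mean over the 4 arrays lay under 5. Whether a dim probe set lay above background is not known. The 1 ZNF750 probe set read 2.23 and 2.29 in the ZNF750-labelled arrays, against 2.13 and 2.37 in the GFP arrays, but an introduced coding sequence need not reach its probes, so it does not check the labels. The 3′ minus 5′ signal of the ACTB control (larger where transcripts are read mostly at their 3′ end) was 3.76 and 3.35 in the ZNF750-labelled arrays, against 3.03 and 2.81 in the GFP arrays. For the GAPDH control the same measure was 0.85 and 0.80 in the ZNF750-labelled arrays, against 0.63 and 0.61 in the GFP arrays. The bioB 3′ control read 8.98 and 9.13 in the ZNF750-labelled arrays, against 8.64 and 8.74 in the GFP arrays. These shifts move with the groups in every result below, and their part in them was not tested. Of 7 epithelial markers read 0 were dim, 4 were called higher (KRT14 at 1.10, KRT5, EPCAM and KRT19) and 1 lower (KRT18 at -0.34). Their summed linear signal was 38078 and 38153 in the ZNF750-labelled arrays, against 32540 and 32936 in the GFP arrays, and the part of this in the results was not tested. Of 11 fibroblast markers, 4 were dim (COL1A2, COL3A1, LUM and PDGFRA), and their summed linear signal was 939 and 824 in the ZNF750-labelled arrays, against 1099 and 889 in the GFP arrays, which overlap. FAP alone among them passed as lower (-0.78 ± 0.20). Endothelial markers summed to 202 and 221 in the ZNF750-labelled arrays, against 189 and 214 in the GFP arrays, and leukocyte markers to 174 and 180, against 154 and 175. Of these 10 genes 0 passed (0 at an unadjusted limma p under 0.05).

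The matrix genes were mostly lower in the ZNF750-labelled arrays. Of the 31 probe sets, 18 were called lower, 1 higher and 12 neither, beside 7.19% of all probe sets called lower and 4.30% called higher. Both ZNF750-labelled arrays lay below both GFP arrays for 21 of the 31 and above them for 4, whereas 24.3% of all probe sets lay below and 29.9% above in this way. The median difference of the 31 was -0.34, and that of all probe sets was 0.026. Of the 19 probe sets that were not dim, 17 were lower, 0 higher and 2 neither (at an unadjusted limma p under 0.05 also 0 higher). A fit of all probe sets that were not dim called 4614 of 32037 lower and 2500 higher. With 1 value per gene, from the probe set with the highest mean, 8 of the 10 genes were lower and 0 higher (1 at an unadjusted limma p under 0.05), beside 10.2% of all genes called lower and 7.79% called higher. The 8 were TNC, FN1, THBS1, TGFBI, CCN1, CCN2, EFEMP1 and VIT. SPARC and POSTN were dim on every probe set and passed on none. In bulk RNA, fewer cells with a transcript and less transcript per cell cannot be told apart.

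The calls rest on few arrays. Without either GFP replicate, the calls of the 31 were lost along with nearly all calls over all probe sets, so that loss is not particular to these genes. All 19 called probe sets kept the sign of their difference when any 1 array was left out. The 8 lower genes stayed negative as well, with FN1 nearest to no difference (-0.35 to -0.29). TNC lay between -1.22 and -1.14, TGFBI between -0.90 and -0.77, and EFEMP1 between -1.27 and -1.12.

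**Figure D1:**
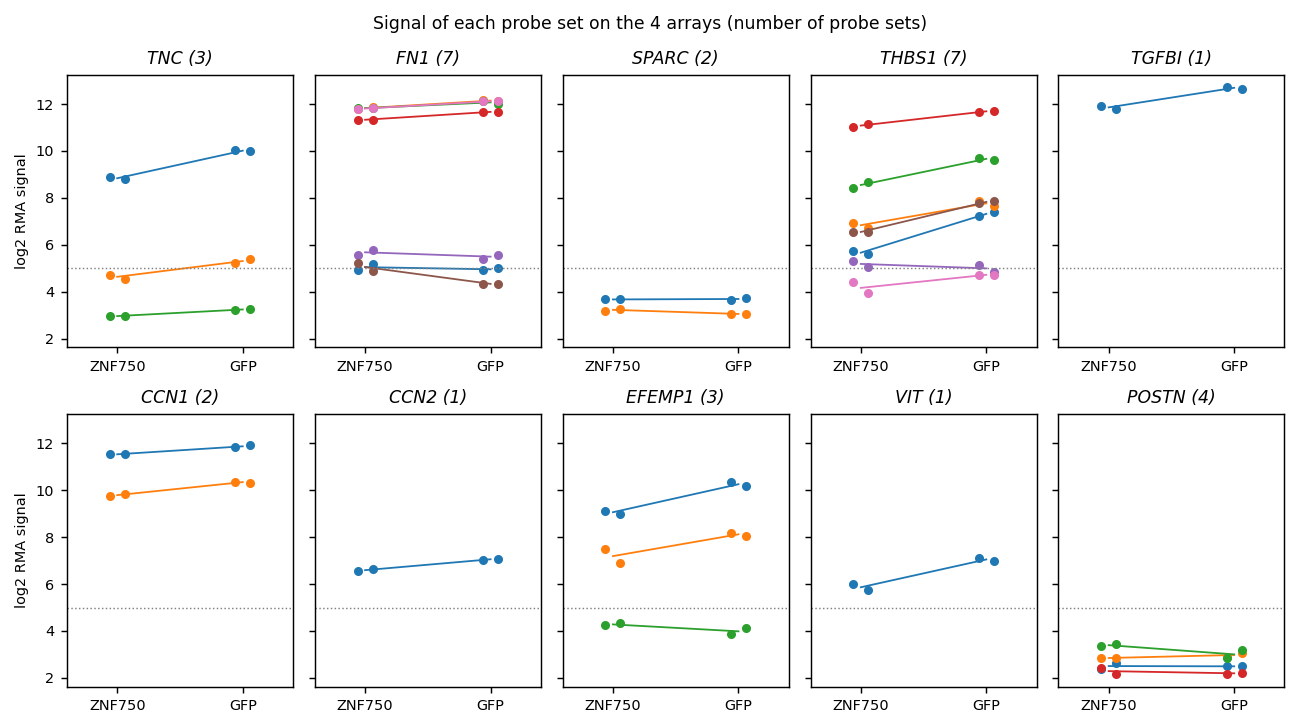
Signal of every probe set of the 10 matrix genes (y axis, log2 RMA signal) in the 2 ZNF750-labelled and the 2 GFP arrays (x axis); each colour within a panel is 1 probe set, points are arrays, lines join group means and the dotted line marks 5, under which a mean is called dim. TNC, TGFBI, CCN1, CCN2 and VIT lie lower with ZNF750 on every probe set, and SPARC and POSTN lie under the dotted line throughout.

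Thrombospondin 1 (THBS1), a trimeric glycoprotein that activates latent TGF-beta and binds CD36 and CD47, had the largest fall of any probe set in the group. Probe set 201107_s_at read 5.74 and 5.59 in the ZNF750-labelled arrays, against 7.23 and 7.40 in the GFP arrays. The groups did not overlap, and the difference of -1.65 ± 0.11 (3.15-fold lower) was the fifth lowest, rank 5, of all 54613 probe sets. A second probe set without a letter suffix, 235086_at, read 6.53 and 6.56 with ZNF750, against 7.78 and 7.88 with GFP, a difference of -1.28 ± 0.082 (2.44-fold lower). The other called probe sets were 201109_s_at (-1.12 ± 0.082), 201108_s_at (-0.93 ± 0.11) and 201110_s_at (-0.61 ± 0.059). THBS1 was thus lower on 5 of 7 probe sets, but by sizes that ranged from 1.52-fold to 3.15-fold. Of the 2 that did not pass, 239336_at gave -0.56 ± 0.17 and 215775_at gave 0.19 ± 0.16. The probe set with the highest mean, 201110_s_at, has the smallest of the 5 called differences, so a single value per gene gives -0.61, while the mean over the 7 gives -0.85 and the brightest probe set without _x_at or _s_at gives -1.28.

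Tenascin C (TNC), a hexameric matrix protein of wounds and tumour stroma that weakens adhesion to fibronectin, was lower on 2 of its 3 probe sets. On 201645_at it read 8.88 and 8.80 in the ZNF750-labelled arrays, against 10.05 and 9.98 in the GFP arrays, a difference of -1.18 ± 0.060 (2.26-fold lower). The groups did not overlap, and the difference was rank 42 from the lowest. The dim probe set 216005_at read 4.71 and 4.55 with ZNF750, against 5.23 and 5.38 with GFP (-0.67 ± 0.12). The third, 237169_at, also dim, gave -0.28 ± 0.11 and did not pass, with both ZNF750-labelled arrays below both GFP arrays. The 3 probe sets of TNC therefore share a direction but not a size.

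The CCN proteins are cysteine-rich secreted regulators that bind integrins and heparan sulphate. CCN1 (CYR61) and CCN2 (connective tissue growth factor) are early targets of YAP/TEAD and of serum and TGF-beta signalling, and both were lower by modest amounts. CCN1 read 11.54 and 11.53 on 201289_at in the ZNF750-labelled arrays, against 11.83 and 11.92 in the GFP arrays (-0.34 ± 0.044, 1.27-fold lower). Its other probe set, 210764_s_at, read 9.75 and 9.83 with ZNF750, against 10.37 and 10.33 with GFP (-0.56 ± 0.053, 1.47-fold lower). CCN2 has 1 probe set, 209101_at, which read 6.56 and 6.62 with ZNF750, against 7.03 and 7.09 with GFP (-0.46 ± 0.086, 1.38-fold lower). For both genes the groups did not overlap on any probe set. With limma's prior variance held equal at all signal levels, 201289_at (adjusted p = 0.0893) and the CCN2 probe set (adjusted p = 0.0561) did not pass.

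The RefSeq promoter table (GRCh38.p14) held an entry for 8 of the 10 genes, TNC, FN1, SPARC, THBS1, TGFBI, CCN2, VIT and POSTN. CCN2, THBS1 and TNC are shown because CCN2 and THBS1 hold the TEAD matches among the lower genes, and TNC was lower with none. Each is the 250 bases before the annotated start, 5′ to 3′ on the gene's strand, with matches in capitals. The motifs searched on both strands were GGAATG for TEAD, TGANTCA for AP-1, CCNNAGGC for ZNF750 and TATAAA for the TATA box.
CCN2, chr6:131951373-131951622, minus strand: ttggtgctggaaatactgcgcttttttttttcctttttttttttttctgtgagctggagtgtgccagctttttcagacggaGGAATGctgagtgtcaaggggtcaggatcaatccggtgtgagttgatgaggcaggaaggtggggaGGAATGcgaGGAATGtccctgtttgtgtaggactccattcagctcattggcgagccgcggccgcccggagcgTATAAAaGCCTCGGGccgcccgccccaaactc
THBS1, chr15:39580829-39581078, plus strand: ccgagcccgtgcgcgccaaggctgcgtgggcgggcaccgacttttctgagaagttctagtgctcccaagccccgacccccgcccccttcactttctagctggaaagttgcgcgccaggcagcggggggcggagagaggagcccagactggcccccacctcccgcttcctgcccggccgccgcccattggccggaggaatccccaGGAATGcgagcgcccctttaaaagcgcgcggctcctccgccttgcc
TNC, chr9:115118158-115118407, minus strand: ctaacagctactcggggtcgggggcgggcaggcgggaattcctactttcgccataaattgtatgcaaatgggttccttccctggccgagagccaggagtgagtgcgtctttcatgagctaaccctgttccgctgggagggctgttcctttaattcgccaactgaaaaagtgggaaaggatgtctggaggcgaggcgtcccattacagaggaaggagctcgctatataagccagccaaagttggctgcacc

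CCN2 held 3 TEAD letter matches, beginning 169, 104 and 95 bases before the start, the last 2 separated by 3 bases. It also held a TATA box match 32 bases before the start and 1 ZNF750 match on the opposite strand, from 25 to 18 bases before it. THBS1 held 1 TEAD match, 46 bases before the start, and SPARC, which was dim, held 1 on the opposite strand 17 bases before the start. TEAD letters were thus in 3 of the 8 promoters, beside 11.9% of 35116 promoters of the same length in the table. ZNF750 letters were in 1 of the 8, beside 23.5% of all, and AP-1 letters in 1 (POSTN), beside 6.57%. TATA box letters were in 2, CCN2 and POSTN, beside 10.7%. TNC, FN1, TGFBI and VIT held 0 of the 4 letter patterns in this window. A match gives letters in a window, not a bound site, and no match describes these 250 bases alone.

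Fibronectin (FN1), the main RGD-bearing adhesive glycoprotein of provisional matrix, gave the least uniform picture. On 210495_x_at it read 11.80 and 11.85 in the ZNF750-labelled arrays, against 12.17 and 12.13 in the GFP arrays (-0.32 ± 0.040, 1.25-fold lower). The probe sets 212464_s_at (-0.34 ± 0.039), 216442_x_at (-0.31 ± 0.036) and 211719_x_at (-0.25 ± 0.049) were also lower, all 4 by 1.19-fold to 1.26-fold. All 4 carry an _x_at or _s_at suffix, used where probes may match several transcripts. On 214702_at, a dim probe set without such a suffix, FN1 read 5.24 and 4.86 with ZNF750, against 4.32 and 4.34 with GFP. That difference of 0.72 ± 0.15 was the only one called higher among the 31 probe sets. The 2 others, 214701_s_at (0.19 ± 0.12) and 1558199_at (0.092 ± 0.13), did not pass and overlapped between groups. The mean over the 7 probe sets was -0.031 and did not pass (adjusted p = 0.724 over all genes). With 1 prior variance for all signal levels, none of the 5 called FN1 probe sets passed by limma, with adjusted p-values between 0.0635 and 0.165.

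TGFBI, a fasciclin-domain protein that binds collagens and integrins and is induced by TGF-beta, has a single probe set, 201506_at. It read 11.93 and 11.79 in the ZNF750-labelled arrays, against 12.73 and 12.66 in the GFP arrays, a difference of -0.84 ± 0.052 (1.79-fold lower). The groups did not overlap. As a gene it passed under all 14 alternative settings, with a difference between -0.90 and -0.77.

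EFEMP1, or fibulin-3, an extracellular glycoprotein with epidermal growth factor-like repeats, was lower on 2 of 3 probe sets. On 201842_s_at it read 9.13 and 9.00 in the ZNF750-labelled arrays, against 10.34 and 10.18 in the GFP arrays (-1.19 ± 0.073, 2.29-fold lower). On 201843_s_at it read 7.50 and 6.89 with ZNF750, against 8.18 and 8.06 with GFP (-0.93 ± 0.18), with the widest spread between ZNF750-labelled replicates of the 31 probe sets. The dim 228421_s_at gave 0.30 ± 0.13 and did not pass, with both ZNF750-labelled arrays above both GFP arrays. All 3 are _s_at probe sets. With 1 prior variance for all signal levels 201843_s_at did not pass (limma adjusted p = 0.0786), which leaves 1 of 3.

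VIT, or vitrin, a matrix protein with von Willebrand factor A domains, has 1 probe set, 227899_at. It read 6.00 and 5.73 in the ZNF750-labelled arrays, against 7.13 and 6.97 in the GFP arrays, a difference of -1.19 ± 0.12 (2.28-fold lower). The groups did not overlap.

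SPARC, a collagen-binding calcium-binding glycoprotein, and POSTN, or periostin, a fasciclin-domain partner of tenascin C made mainly by fibroblasts, were dim on all 6 of their probe sets. SPARC read 3.67 and 3.67 on 200665_s_at in the ZNF750-labelled arrays, against 3.65 and 3.73 in the GFP arrays (-0.019 ± 0.11). Its second probe set, 212667_at, gave 0.18 ± 0.11. POSTN read 3.34 and 3.44 on 210809_s_at with ZNF750, against 2.83 and 3.17 with GFP (0.39 ± 0.14, adjusted p = 0.128). Its 3 other probe sets gave -0.13 ± 0.11, 0.012 ± 0.12 and 0.093 ± 0.12. None passed, and RMA compresses differences this close to the lowest signals on the arrays.

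**Figure D2:**
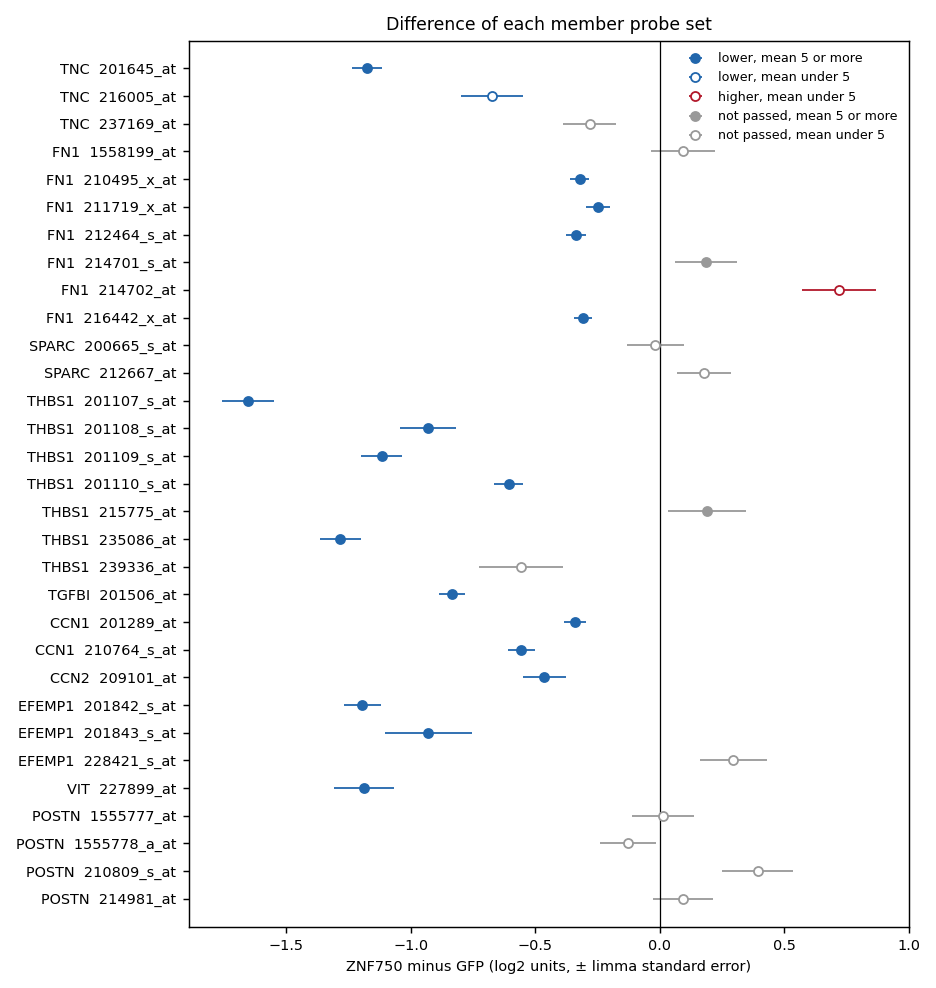
Difference of each of the 31 probe sets (x axis, ZNF750 minus GFP in log2 units, bars are limma standard errors, n = 2 arrays per group), by gene and probe set; colour gives the call at an adjusted p under 0.05, and open points have a mean under 5. THBS1 spans -1.65 to 0.19 over 7 probe sets and FN1 -0.34 to 0.72 over 7.

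Paralogs of these genes, read by 1 probe set per gene, were set beside them. Dim were 2 of 4 CCN, 2 of 4 thrombospondin, 0 of 3 tenascin, 2 of 7 SPARC-family and 2 of 6 fibulin paralogs. Over all genes 10.2% were called lower and 7.79% higher. Families of 3 to 7 genes are too small to set a count of 0 against those shares. Among 4 CCN paralogs 0 were lower (0 at an unadjusted limma p under 0.05) and 1 was higher. CCN3, a CCN protein associated with growth restraint, read 8.18 and 8.13 on 214321_at in the ZNF750-labelled arrays, against 7.35 and 7.08 in the GFP arrays (0.94 ± 0.099). CCN3 was thus higher in the arrays where CCN1 and CCN2 were lower, although its second probe set, 204501_at, gave 0.18 ± 0.10 and did not pass. The difference between the CCN genes was not tested. Of 4 thrombospondin paralogs 0 were lower and 0 higher (0 and 1 at an unadjusted limma p under 0.05), with differences between 0.053 and 0.30. Of 3 tenascin paralogs 0 were lower and 0 higher (0 and 2 unadjusted), between -0.077 and 0.33, and of 6 fibulin paralogs 0 and 0 (0 and 0 unadjusted), between -0.15 and 0.073. In the SPARC family 1 of 7 was lower, FSTL1 (-0.39 ± 0.058), and 2 were higher, SMOC2 (0.80 ± 0.17) and SPOCK2 (0.35 ± 0.089), FSTL1 and SPOCK2 being named after their values were seen.

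Over all 57 other matrix glycoprotein genes read, 7 were lower, 4 higher and 46 neither, with a median of 0.024, beside 0.036 for all genes. These are 12.3% lower and 7.02% higher, close to the 10.2% and 7.79% of all genes, dim ones included. Of the 57, 19 were dim, and all calls came from the 38 others (7 lower and 4 higher). A fit of all genes that were not dim called 2257 of 14222 lower and 1582 higher. The largest differences were those of CCN3, FRAS1 (-0.91 ± 0.099), a basement membrane protein of the Fraser complex, ECM2 (0.87 ± 0.13) and SMOC2. LTBP4, a latent TGF-beta binding protein, differed by 0.024 ± 0.084. ECM2 and SMOC2 were each higher on 1 of 2 probe sets. FRAS1 was lower on 1 of 6 probe sets, and the mean of its probe sets (-0.25, adjusted p = 0.105) did not pass. SMOC2 did not pass without _s_at probe sets (0.074), nor with 1 prior variance for all signal levels (limma adjusted p = 0.0705).

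Of 18 integrins and other receptors that bind the matrix proteins, 6 were lower, 1 higher and 11 neither, with a median of -0.060. These are 33.3% lower and 5.56% higher, beside 10.2% and 7.79% of all genes, dim ones included. Of the 18, 3 were dim, and a fit of all genes that were not dim called 2257 of 14222 lower and 1582 higher. ITGAV, the alpha chain of vitronectin receptors that recognise RGD in fibronectin, read 9.60 and 9.56 in the ZNF750-labelled arrays, against 10.12 and 10.17 in the GFP arrays (-0.57 ± 0.050). Its partner ITGB5 was 0.44 lower on the log2 scale (-0.44 ± 0.055), and all 4 ITGB5 probe sets were called lower. The collagen receptor chain ITGA2 (-0.44 ± 0.062) and the laminin receptor chain ITGA3 (-0.66 ± 0.046) were lower too, although the second ITGA2 probe set, 205032_at, gave -0.27 and did not pass (limma adjusted p = 0.0574). The beta chain ITGB1 (-0.30 ± 0.033) and the heparan sulphate carrier SDC1 (-0.40 ± 0.046), named after their values were seen, complete the 6, and SDC4 (0.18 ± 0.050) was the 1 that was higher. ITGB3, the other common partner of ITGAV, differed by -0.021 ± 0.097 on the brightest of its 7 probe sets. The mean over those probe sets was 0.16 and did not pass (limma adjusted p = 0.291). ITGA5, the fibronectin receptor chain, was named outside the rule given below and differed by 0.099 ± 0.073. Without either GFP replicate most calls of this list were lost, as were most calls over all genes.

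Of 21 genes of TGF-beta and YAP/TEAD signalling, which induce several of the matrix genes, 3 were lower, 1 higher and 17 neither, with a median of 0.0099. These are 14.3% lower and 4.76% higher, beside 10.2% and 7.79% of all genes, dim ones included. Of the 21, 0 were dim, and a fit of all genes that were not dim called 2257 of 14222 lower and 1582 higher. The TGF-beta receptor TGFBR2 read 8.91 and 8.94 in the ZNF750-labelled arrays, against 9.47 and 9.43 in the GFP arrays (-0.53 ± 0.054). SMAD7, an inhibitory SMAD that TGF-beta itself induces, was lower (-0.56 ± 0.099), as was TEAD1 (-0.26 ± 0.061), a DNA-binding partner of YAP. The kinase LATS1, which restrains YAP, was higher (0.24 ± 0.062). SMAD2 differed by 0.0099 ± 0.056 on the brightest of its 6 probe sets, although another, 203076_s_at, was lower (-0.34 ± 0.078, limma adjusted p = 0.0338). The mean over its 6 probe sets was -0.056 and did not pass. YAP1, named outside the rule given below, differed by 0.050 ± 0.037. Read by probe set, TGFBR2 was lower on 1 of 2, TEAD1 on 1 of 3, and LATS1 was higher on 0 of 4 (227772_at gave a limma adjusted p of 0.0520 over all probe sets). Averaged over their probe sets, TEAD1 and LATS1 did not pass (limma adjusted p = 0.333 for TEAD1 and 0.198 for LATS1). Without either GFP replicate the calls of this list were lost, as were most calls over all genes.

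Of 19 YAP targets other than CCN1 and CCN2, 7 were lower, 4 higher and 8 neither, with a median of -0.092. These are 36.8% lower and 21.1% higher, beside 10.2% and 7.79% of all genes, dim ones included. Of the 19, 1 was dim, and a fit of all genes that were not dim called 2257 of 14222 lower and 1582 higher. AXL, a receptor tyrosine kinase, read 11.82 and 11.72 in the ZNF750-labelled arrays, against 12.76 and 12.77 in the GFP arrays (-0.996 ± 0.043). NT5E, the ectonucleotidase CD73 (-0.90 ± 0.076), RBMS3, an RNA-binding protein (-0.81 ± 0.11), and FJX1 (-0.65 ± 0.050) were lower as well. AMOTL2, an angiomotin and a common YAP readout, differed by 0.033 ± 0.056. ANKRD1, dim here and named outside the rule given below, differed by -0.060 ± 0.11. The 4 higher genes were GADD45A (0.36 ± 0.037), MYOF (0.34 ± 0.062), IGFBP3 (0.16 ± 0.038) and F3 (0.13 ± 0.037), named after their values were seen. AXL was lower on 2 of 2 probe sets, NT5E on 3 of 4 and RBMS3 on 4 of 7. With either GFP replicate left out, most calls of this list were lost, as were most calls over all genes. With the mean of probe sets RBMS3 gave -0.38.

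Of 18 genes of matrix cross-linking, cleavage and processing, 4 were lower, 2 higher and 12 neither, with a median of -0.11. These are 22.2% lower and 11.1% higher, beside 10.2% and 7.79% of all genes, dim ones included. Of the 18, 2 were dim, and a fit of all genes that were not dim called 2257 of 14222 lower and 1582 higher. PXDN, a peroxidase that cross-links collagen IV (-0.75 ± 0.077), and ADAMTS1, a protease that cleaves proteoglycans and thrombospondin 1 (-0.75 ± 0.069), were lower on both of their probe sets. LOX, the lysyl oxidase that fibronectin and periostin help to activate, read 7.78 and 7.59 in the ZNF750-labelled arrays, against 7.11 and 7.06 in the GFP arrays (0.60 ± 0.091), and was higher on 2 of 3 probe sets. The dim TLL1, a tolloid protease, was 0.56 ± 0.14 higher and did not pass as an average of its probe sets (0.35, limma adjusted p = 0.0857). ADAMTS4 differed by -0.047 ± 0.11. With either GFP replicate left out, the calls of this list were lost, as were most calls over all genes.

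**Figure D3:**
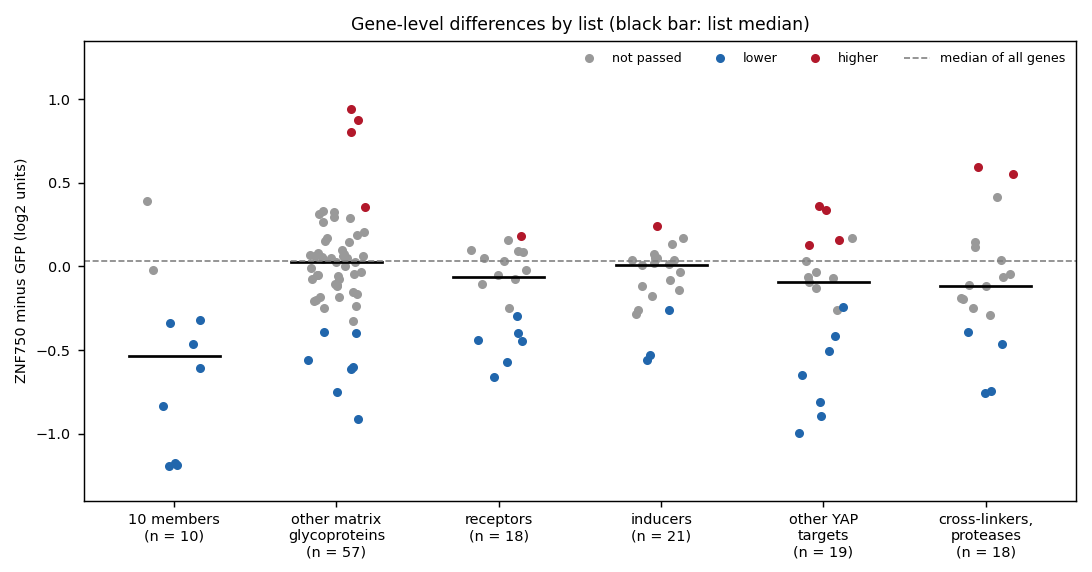
Difference of each gene (y axis, ZNF750 minus GFP in log2 units, 1 probe set per gene) in the 10 matrix genes and 5 lists of related genes (x axis, number of genes read in brackets); colour gives the call, black bars are list medians and the dashed line is the median of all genes, 0.036. The list medians lie between -0.11 and 0.024, and the 10 genes chosen on this contrast have a median of -0.54.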

How the data were processed

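Biotin-labelled cRNA from 4 CaSki samples was hybridized to 1-colour arrays, and the authors deposited 1 table of log2 values. Per the submitters' processing notes they were made with RMA, of no stated version. Scanner files and detection calls were not used here, and the small number of arrays limits precision.

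Symbols came from the platform annotation: 41091 probe sets had 1 symbol, 1801 several and 11721 none, and 41037 matched RefSeq by Entrez identifier. R 4.3.3 and limma 3.58.1 gave each difference from a 2-group linear model whose prior variance followed signal level (2 residual degrees of freedom), over 54613 probe sets, or over 19775 genes, each read by its probe set with the highest mean. Benjamini-Hochberg adjustment covered each whole fit. An exact permutation test of 2 against 2 arrays cannot reach 0.05 and was not used. The script was tested on simulated data.

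The genes and the 5 lists were chosen with earlier results of these data known. The rule for naming list genes took up to 4 with the largest difference among those that passed without overlap, and the 1 with the smallest difference at a mean of 6 or more. Alternatives covered the variance prior, dim probe sets, scaling, a replicate block, thresholds, the choice of probe set and leaving out each array.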

Additional observations from a re-analysis of the deposited data

How the results depend on the processing

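TNC and TGFBI passed as lower genes under all 14 alternatives and EFEMP1 under the 13 that could be run for it, while FN1 passed under 8 of 14. Over all genes the split of 2013 lower and 1541 higher became 1793 and 2277 after cyclic loess, 1742 and 2288 after a second quantile normalization, and 1834 and 2618 when centred on brighter features. Over all probe sets, 3927 lower and 2348 higher became 754 and 520 with 1 prior variance, and 3584 and 3992 when centred. In the lists below, counts are genes unless stated. Inducers means the list of TGF-beta and YAP/TEAD signalling genes, which also holds inhibitors such as SMAD7 and LATS1, the gene called higher above. A higher inducer is thus not necessarily a gene that raises the matrix genes. Cross-linkers and proteases means the list of matrix cross-linking, cleavage and processing genes.

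With 1 prior variance, 11 of the matrix probe sets were lower and 0 higher, 0 receptors and 0 inducers were higher, and 1 YAP target and 1 cross-linker or protease were higher. Without dim features 0 matrix probe sets and 1 cross-linker or protease were higher, and inducers gave 5 lower and 2 higher. Cyclic loess, the second quantile normalization and centring each gave 2 higher inducers. At an adjusted p under 0.01, 0 matrix probe sets, 0 receptors, 0 inducers, 2 other matrix glycoproteins, 2 YAP targets and 1 cross-linker or protease were higher. With a difference of at least 0.5 required, 5 matrix genes, 2 receptors and 2 cross-linkers or proteases were lower, and 0 receptors, 0 inducers and 0 YAP targets were higher. The mean of probe sets gave 4 lower matrix glycoproteins, and 0 receptors, 0 inducers, 1 YAP target and 1 cross-linker or protease higher. Without _x_at and _s_at probe sets, 4 other matrix glycoproteins were lower and 2 higher, 0 receptors and 1 YAP target were higher, and 1 cross-linker or protease was lower and 1 higher. Over all genes, 1 prior variance gave 782 lower and 713 higher, and leaving out dim features gave 2257 and 1582 of 14222. At an adjusted p under 0.01, 1000 of all genes and 1474 of all probe sets were lower, and 635 and 704 higher. A difference of at least 0.5 left 448 genes lower and 447 higher. The mean of probe sets gave 1600 and 1043, and leaving out _x_at and _s_at gave 1370 and 1037 of 17098.

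Leaving out 1 array at a time gave 0 to 11 lower and 0 higher matrix probe sets, and 3 to 8 lower matrix genes. It gave 1 to 8 lower and 0 to 3 higher other matrix glycoproteins, 1 to 6 lower and 0 higher receptors, and 0 to 3 lower and 0 higher inducers. YAP targets gave 2 to 7 lower and 0 to 2 higher, and cross-linkers and proteases 0 to 4 lower and 0 to 1 higher. The lowest counts of lower calls came from leaving out a GFP array, which gave 1 lower and 10 higher of all probe sets without replicate 1, and 1 and 8 without replicate 2.

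The samples of both groups share only a replicate number. Deviations of same-numbered arrays from their group means correlated at 0.13 over 54613 probe sets. With the replicate block 18 matrix probe sets were lower and 1 higher, 0 receptors and 2 inducers were higher, and all probe sets gave 3792 lower and 2002 higher. All genes gave 2291 lower and 1676 higher with that block. The causes of these changes were not tested.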
